A study of Mus musculus with 9 samples.

Results

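The nucleosome remodeling and deacetylase complex (NuRD) was followed through the mRNA of the 9 genes that encode its remodeling, scaffold, methyl-CpG-binding, and linker proteins, namely *Chd3*, *Chd4*, *Mta1*, *Mta2*, *Mta3*, *Mbd2*, *Mbd3*, *Gatad2a*, and *Gatad2b*. They were picked by symbol out of 25239 with a read count, as known subunits, with earlier results of these data known. All 9 were present, and all 9 passed the filter on low counts that left 14125 genes for testing. RNA-seq was performed on mouse E14 embryonic stem cells (ESCs), a line derived from a blastocyst and given the strain label 12910la, and on ESC lines in which the histone-binding protein gene *Rbbp4* had been edited with CRISPR-Cas9. The question was how gene expression changes when RBBP4, itself a NuRD subunit, is altered but not lost. Control cells were Rbbp4+/+. Rbbp4Ins/Ins cells carry an in-frame insertion on both alleles, and Rbbp4Ins/Del cells carry the same insertion on 1 allele and an in-frame deletion on the other. Each mutant line is 1 clone, so the genotype and any other trait of the clone cannot be told apart. All cells grew in medium with fetal bovine serum and leukemia inhibitory factor, with 3 libraries per line and 9 in all.

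NuRD joins an ATPase that slides nucleosomes, CHD3 or CHD4, to a histone deacetylase module of HDAC1 or HDAC2 held on a dimer of MTA proteins, which also bind RBBP4 and RBBP7. MBD2 or MBD3 bridges the deacetylase module to GATAD2A or GATAD2B, and the GATAD2 protein binds the CHD ATPase. Within each of these families the paralogs take alternative places in the complex. In ESCs the MBD3 form of NuRD is known for holding back pluripotency genes and for allowing cells to leave self-renewal.

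The stretches of genome directly upstream of 4 subunit genes are shown because these genes make up 2 pairs that move in opposite directions in the results, *Chd4* and *Mta1* downward and *Mbd3* and *Gatad2a* upward. The sequences are from the RefSeq promoter table on GRCm38.p6, the mm10 build, which held a start site for 6 of the 9 genes, and *Chd3*, *Mta3*, and *Mbd2* were not matched. The stretches are chr6:125095731-125095980 on the plus strand for *Chd4*, chr12:113098028-113098277 on the plus strand for *Mta1*, chr10:80399551-80399781 on the minus strand for *Mbd3*, and chr8:69996385-69996634 on the minus strand for *Gatad2a*. Each is written 5′ to 3′ and ends next to the first annotated exon, and capitals mark the GC box GGGCGG on either strand.
Chd4: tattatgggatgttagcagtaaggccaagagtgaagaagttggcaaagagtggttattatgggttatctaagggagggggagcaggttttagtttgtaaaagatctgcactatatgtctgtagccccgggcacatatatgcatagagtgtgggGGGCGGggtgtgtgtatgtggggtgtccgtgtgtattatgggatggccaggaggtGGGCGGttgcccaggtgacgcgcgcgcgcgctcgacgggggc
Mta1: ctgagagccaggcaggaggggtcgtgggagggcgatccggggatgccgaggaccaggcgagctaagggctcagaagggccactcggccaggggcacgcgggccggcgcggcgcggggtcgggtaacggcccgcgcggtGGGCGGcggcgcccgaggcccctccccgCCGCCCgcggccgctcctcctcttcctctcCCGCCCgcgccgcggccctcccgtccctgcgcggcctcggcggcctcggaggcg
Mbd3: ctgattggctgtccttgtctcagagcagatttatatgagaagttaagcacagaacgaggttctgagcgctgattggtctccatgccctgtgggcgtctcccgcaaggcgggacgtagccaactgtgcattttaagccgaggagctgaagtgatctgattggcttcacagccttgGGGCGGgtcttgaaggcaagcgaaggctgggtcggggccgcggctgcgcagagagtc
Gatad2a: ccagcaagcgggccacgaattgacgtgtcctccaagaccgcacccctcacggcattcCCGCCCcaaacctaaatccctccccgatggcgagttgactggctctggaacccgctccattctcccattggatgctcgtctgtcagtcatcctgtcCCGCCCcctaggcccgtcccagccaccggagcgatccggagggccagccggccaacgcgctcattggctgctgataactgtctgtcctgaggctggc
The 4 windows of 250 bases held 2, 3, 1, and 2 GC boxes in this order, and 32.7% of 32851 RefSeq promoter windows of that length held at least 1. For *Mbd3* this window is the printed stretch of 231 bases plus 19 bases that lie in its exon. The printed stretch alone held 13 CpG. CpG dinucleotides numbered 12 upstream of *Chd4*, 39 upstream of *Mta1*, 14 upstream of *Mbd3*, and 18 upstream of *Gatad2a*, against a median of 6 over all windows. The *Mta1* window held more CpG than 98.4% of all windows. The CCAAT motif, searched on both strands, was found 3 times upstream of *Mbd3* and 2 times upstream of *Gatad2a*, and was not found in the windows of *Chd4* and *Mta1*. It was present in 33.8% of all windows. The table lists a second start for *Chd4* and for *Gatad2a*, and there the CCAAT counts of the full windows go the other way. The window of 250 bases before the second *Chd4* start held 1 CCAAT motif, 3 GC boxes, and 23 CpG, and that before the second *Gatad2a* start held 0 CCAAT motifs, 3 GC boxes, and 20 CpG. Of the second *Chd4* window, 182 bases lie in *Chd4* exons. The 68 bases outside them held 0 CCAAT motifs, 1 GC box, and 9 CpG. The second *Gatad2a* window held 0 exon bases. Because it also held 0 CCAAT motifs, the motif counts do not separate the lowered from the raised genes.

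The libraries held 15838064 to 21366868 counted reads each, and replicates of each line differed by more than counting noise, so none was a copy of another. The labels do not say that the 3 libraries of a line came from separate cultures, so the p-values measure only the spread between these libraries, which may be technical. Values are given as normalized counts, which are reads divided by library size after trimmed mean of M-values (TMM) scaling and set to the mean library size. A gene was called higher or lower at an adjusted p of at most 0.01 in the quasi-likelihood test of edgeR, adjusted over all tested genes by the Benjamini-Hochberg method, and every adjusted p below comes from that test. The summed level of 8 ESC markers lay between 5131 and 5375 CPM, the reads of a gene scaled to a common library size, in controls, 6247 and 6357 in Rbbp4Ins/Ins, and 6209 and 6360 in Rbbp4Ins/Del, with none of them at or under 3 reads in every library of a line. The 5 fibroblast or feeder markers summed to between 170 and 182 CPM in controls, 72.5 and 76.1 in Rbbp4Ins/Ins, and 90.4 and 99.5 in Rbbp4Ins/Del, with *S100a4* at or under 3 reads in every library. The 4 neural markers summed to 165 to 168, 72.6 to 79.7, and 90.1 to 93.8 CPM, the 7 trophoblast markers to 92.8 to 95.1, 118 to 125, and 78.1 to 82.5 CPM, the 7 primitive endoderm markers to 20.4 to 21.9, 11.5 to 14.9, and 17.3 to 18.9 CPM, and the 5 mesoderm markers to 14.9 to 16.5, 20.8 to 22.5, and 20.2 to 21.3 CPM, in the same order of lines. The sums of each list differed between controls and each mutant line without overlap, while the mutant lines overlapped for ESC and mesoderm markers. Members of a list did not move together. *T* had 40 to 52 reads in controls and at most 3 in any mutant library while the mesoderm sum was higher, *Eomes*, counted in both the mesoderm and the trophoblast list, was called higher in both mutants, and *Cdx2* had 27 to 36 reads in controls and 1 to 4 in the mutants. *Thy1* (log2 fold changes 2.43 and 2.77) and *Tubb3* (1.04 and 1.46) were higher within the lower fibroblast and neural sums, and *Utf1* (-0.48 and -0.72) was lower within the higher ESC sum. The part of these cell type markers in the results was not tested. In bulk RNA, a change in the number of cells of a type and a change in RNA per cell cannot be told apart.

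In both mutant lines *Chd3*, *Chd4*, and *Mta1* were lower than in controls, *Mbd2*, *Mbd3*, and *Gatad2a* were higher, and *Mta2*, *Mta3*, and *Gatad2b* were not called. The same controls enter both comparisons. None of the 9 genes changed by 2-fold or more. The sizes ranged from a log2 fold change of -0.70 for *Chd3* to 0.64 for *Mbd2*, both in Rbbp4Ins/Del. Calls were frequent in this dataset, with 58.4% of tested genes called in Rbbp4Ins/Ins and 62.5% in Rbbp4Ins/Del, so that 6 of 9 subunit genes (66.7%) is near the share over all genes. By direction, 29.0% of all genes were higher and 29.4% lower in Rbbp4Ins/Ins, and 30.6% were higher and 31.9% lower in Rbbp4Ins/Del, beside 3 of 9 subunit genes each way. The median absolute log2 fold change was 0.19 and 0.20 over the subunit genes and 0.30 and 0.34 over all tested genes. In each mutant line, the libraries of 8 of 9 genes did not overlap with the control libraries, compared with 69.1% and 72.8% of all genes. The plot of normalized counts by library shows these levels gene by gene.

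**Figure D1:**
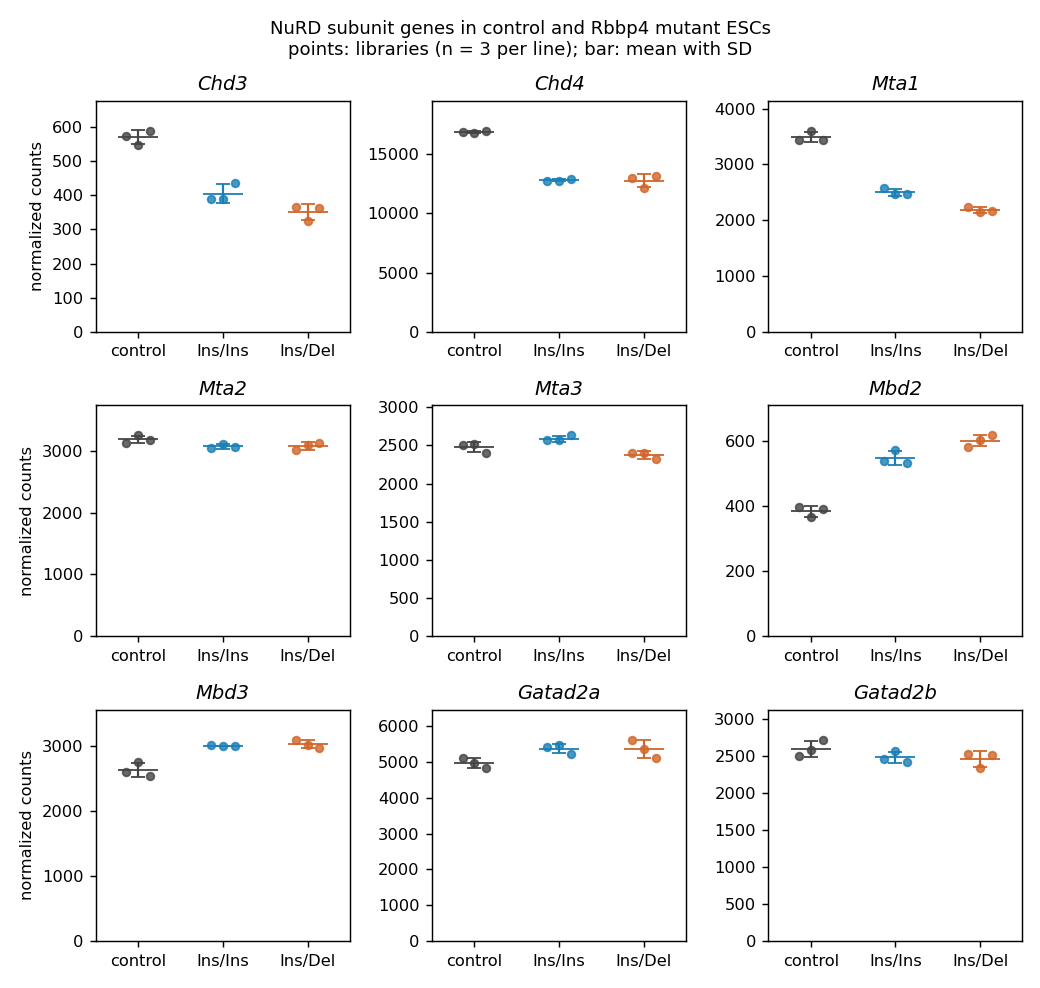
Normalized counts of the 9 NuRD subunit genes in each library of the control, Rbbp4Ins/Ins, and Rbbp4Ins/Del lines, with points for libraries and bars for the mean and SD (n = 3), on vertical axes that start at 0 and differ between panels. *Chd3*, *Chd4*, and *Mta1* sit lower in all 6 mutant libraries than in any control, and *Mbd2*, *Mbd3*, and *Gatad2a* sit higher.

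CHD4 is the main NuRD ATPase of ESCs. *Chd4*, on chromosome 6 from 125095981 to 125130591, had 16853, 16771, and 16967 normalized counts in the controls. Its Rbbp4Ins/Ins libraries held 12767, 12774, and 12942, and its Rbbp4Ins/Del libraries held 12965, 12161, and 13182. All mutant libraries lay below all controls, and the libraries of the mutant lines overlapped each other. The log2 fold change was -0.39 (SE 0.028, adjusted p = 1.4e-15) in Rbbp4Ins/Ins and -0.40 (SE 0.028, adjusted p = 6.9e-16) in Rbbp4Ins/Del. The mean was therefore reduced by 23.9% and 24.3%. A microRNA gene on the same strand, *Mir7045*, covers 0.786% of the *Chd4* exons.

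*Chd3*, on chromosome 11 from 69343273 to 69369406, encodes the paralogous ATPase. Controls held 573, 549, and 589 normalized counts, Rbbp4Ins/Ins held 390, 388, and 438, and Rbbp4Ins/Del held 367, 325, and 363. The 3 lines did not overlap, with Rbbp4Ins/Del lowest. *Chd3* was reduced by 28.9% in Rbbp4Ins/Ins (log2 fold change -0.49, SE 0.067, adjusted p = 3.6e-08) and by 38.3% in Rbbp4Ins/Del (-0.70, SE 0.069, adjusted p = 1.4e-11). It had the largest absolute mean change of the 9 genes over both mutant lines. The 5 tested genes whose log2 CPM followed *Chd3* most closely over the 9 libraries were *Cyp1b1*, *Ttf2*, *Ccng2*, *Syt4*, and *Fam3c*, with Pearson's r between 0.989 and 0.994. Because the 3 libraries of a line share their genotype, such likeness is common here, and 630 of 14124 genes (4.46%) had an r over 0.95 with *Chd3*.

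MTA proteins hold the deacetylases and RBBP4 together. *Mta1*, on chromosome 12 from 113098278 to 113137206, had 3438, 3600, and 3446 normalized counts in controls. These fell to 2570, 2469, and 2465 in Rbbp4Ins/Ins and to 2243, 2146, and 2158 in Rbbp4Ins/Del. The 3 lines formed separate levels without overlap. The reduction was 28.4% in Rbbp4Ins/Ins (log2 fold change -0.48, SE 0.034, adjusted p = 1.4e-15) and 37.6% in Rbbp4Ins/Del (-0.68, SE 0.034, adjusted p = 3.9e-20). These values are of mRNA only. By Western blot, the study reported no impaired expression of MTA1 or HDAC1 protein in the *Rbbp4* mutants.

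*Mta2*, on chromosome 19 from 8941875 to 8952303, behaved differently from *Mta1*. Its controls held 3129, 3245, and 3171 normalized counts, its Rbbp4Ins/Ins libraries 3044, 3104, and 3053, and its Rbbp4Ins/Del libraries 3004, 3096, and 3123. Every mutant library lay under the lowest control, but the gap was small. The log2 fold change of -0.05 did not pass the test in Rbbp4Ins/Ins (95% interval -0.12 to 0.01, adjusted p = 0.14) or in Rbbp4Ins/Del (-0.11 to 0.02, adjusted p = 0.17). *Mta3*, on chromosome 17 from 83706163 to 83821516, held 2507, 2516, and 2405 normalized counts in controls, 2566, 2564, and 2629 in Rbbp4Ins/Ins, and 2404, 2397, and 2320 in Rbbp4Ins/Del. The controls sat between the mutant lines. Neither difference from controls was called, with a log2 fold change of 0.06 in Rbbp4Ins/Ins (-0.01 to 0.13, adjusted p = 0.11) and -0.06 in Rbbp4Ins/Del (-0.13 to 0.01, adjusted p = 0.11).

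MBD2 binds methylated CpG, whereas mammalian MBD3 has largely lost that binding. *Mbd2*, on chromosome 18 from 70568189 to 70626131, had 396, 366, and 391 normalized counts in controls. It had 537, 572, and 533 in Rbbp4Ins/Ins and 582, 604, and 617 in Rbbp4Ins/Del. The 3 lines did not overlap. *Mbd2* was 1.43-fold higher in Rbbp4Ins/Ins (log2 fold change 0.51, SE 0.064, adjusted p = 7.3e-09) and 1.56-fold higher in Rbbp4Ins/Del (0.64, SE 0.063, adjusted p = 1.4e-11). *Mbd3*, on chromosome 10 from 80392539 to 80399550, held 2613, 2759, and 2544 normalized counts in controls, 3015, 3010, and 3005 in Rbbp4Ins/Ins, and 3100, 3021, and 2979 in Rbbp4Ins/Del. All mutant libraries were above all controls and the mutant lines overlapped. The increase was 14.1% (log2 fold change 0.19, SE 0.034, adjusted p = 7.0e-06) and 15.0% (0.20, SE 0.034, adjusted p = 2.3e-06).

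The GATAD2 proteins connect MBD2 or MBD3 with the CHD ATPase. *Gatad2a*, on chromosome 8 from 69907076 to 69996384, had 5100, 4983, and 4830 normalized counts in controls, 5415, 5481, and 5235 in Rbbp4Ins/Ins, and 5615, 5371, and 5106 in Rbbp4Ins/Del. The lowest Rbbp4Ins/Del library lay only just above the highest control. *Gatad2a* was called higher in both lines, by 8.17% in Rbbp4Ins/Ins (log2 fold change 0.11, SE 0.033, adjusted p = 2.7e-03) and by 7.92% in Rbbp4Ins/Del (0.11, SE 0.033, adjusted p = 3.1e-03). The call did not hold in Rbbp4Ins/Ins without control library 3 (adjusted p = 0.0104) or without Rbbp4Ins/Ins library 2 (adjusted p = 0.0172). In Rbbp4Ins/Del it did not hold without control library 3 (adjusted p = 0.0113), Rbbp4Ins/Del library 1 (adjusted p = 0.0492), or Rbbp4Ins/Del library 2 (adjusted p = 0.0109), nor with scaling by total counts (adjusted p = 0.0103). *Gatad2b*, on chromosome 3 from 90293178 to 90363407, held 2500, 2584, and 2716 normalized counts in controls, 2460, 2567, and 2417 in Rbbp4Ins/Ins, and 2524, 2332, and 2512 in Rbbp4Ins/Del. All 3 lines overlapped, and neither mutant was called, at log2 fold changes of -0.07 (95% interval -0.14 to 0.01) and -0.08 (-0.16 to -0.01). An antisense gene, *4930537H20Rik*, covers 2.16% of the *Gatad2b* exons on the opposite strand.

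Around each of the 9 genes, the median log2 fold change of the other tested genes whose start lay within 5 Mb lay between -0.05 and 0.14 in both mutant lines. These medians are smaller in size than the log2 fold changes of *Chd3*, *Chd4*, *Mta1*, *Mbd2*, and *Mbd3*, but a median over many genes varies less than a single gene. The part of these regions in the changes of the 9 genes was not tested. The plot of fold changes sets the 9 genes side by side.

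**Figure D2:**
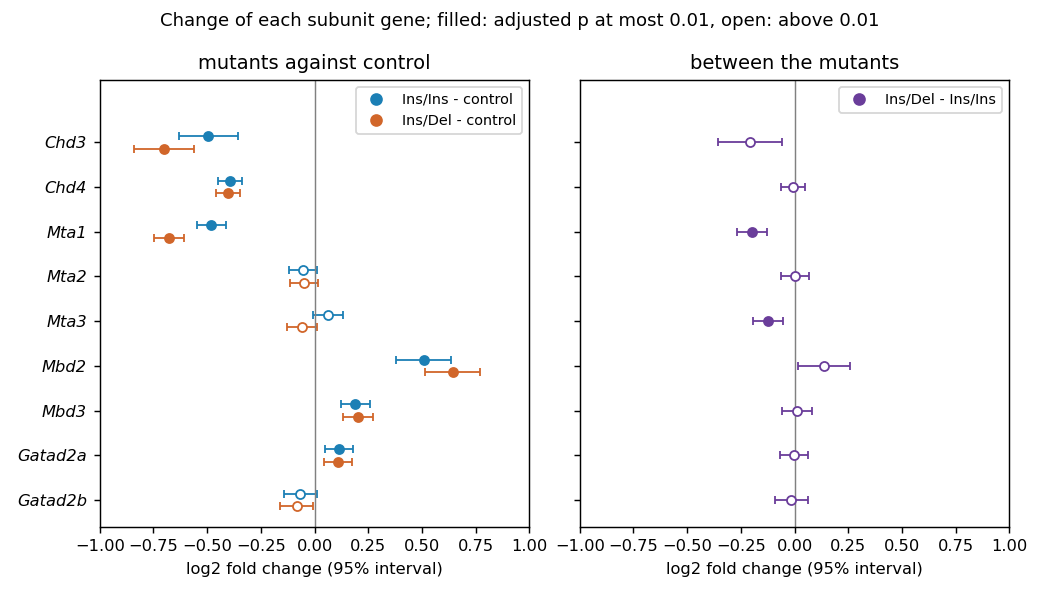
Log2 fold changes of the 9 subunit genes with 95% intervals from the edgeR fit, for each mutant line against controls on the left and for Rbbp4Ins/Del against Rbbp4Ins/Ins on the right, where filled points have an adjusted p of at most 0.01. *Chd3*, *Chd4*, and *Mta1* lie left of 0 and *Mbd2*, *Mbd3*, and *Gatad2a* right of 0 in both mutants, and between the mutants only *Mta1* and *Mta3* are filled.

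The mutant lines were compared directly to ask whether the subunit genes differ between an insertion on both alleles and an insertion with a deletion. Of the 9 genes, 2 were lower in Rbbp4Ins/Del than in Rbbp4Ins/Ins and 0 were higher, while over all tested genes 10.8% were called, 4.64% lower and 6.17% higher. *Mta1* was lower by 12.8% (log2 fold change -0.20, SE 0.035, adjusted p = 6.6e-05), and the libraries of the lines did not overlap. *Mta3* was lower by 8.21% (-0.12, SE 0.034, adjusted p = 0.0096), also without overlap, but this call was lost in 10 of 15 alternatives, among them DESeq2 (adjusted p = 0.0334) and the removal of any 1 of the 6 mutant libraries (adjusted p from 0.0192 to 0.0628). *Chd3* libraries were also lower in Rbbp4Ins/Del without overlap, at a log2 fold change of -0.21 (95% interval -0.35 to -0.06, adjusted p = 0.041), and *Mbd2* libraries were higher, at 0.14 (0.01 to 0.26, adjusted p = 0.11), and neither was called. Libraries of 4 of 9 genes did not overlap between the mutants, against 34.1% of all genes. The log2 differences of the other genes lay between -0.02 and 0.01, with limits of the 95% intervals between -0.093 and 0.080.

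Levels of different genes were compared as CPM per kb of exon. In controls the order was *Chd4* at 115 ± 0.675 (SD, n = 3) CPM per kb, *Mbd3* at 72.8 ± 3.03, *Mta1* at 61.7 ± 1.61, *Gatad2a* at 48.8 ± 1.33, *Mta2* at 42.6 ± 0.788, *Mta3* at 25.5 ± 0.640, *Gatad2b* at 12.5 ± 0.523, *Mbd2* at 6.55 ± 0.277, and *Chd3* at 3.70 ± 0.131. No neighbours in this order overlapped. In Rbbp4Ins/Ins, *Gatad2a* at 52.8 CPM per kb (51.4 to 53.8) stood above *Mta1* at 44.2 ± 1.05, and *Chd4* at 87.7 ± 0.675 remained 1.06-fold above *Mbd3* at 83.1 ± 0.134. In Rbbp4Ins/Del, *Mta1* at 38.5 ± 0.935 CPM per kb stood below *Mta2* at 41.2 ± 0.831, and the libraries of *Chd4* at 87.3 ± 3.68 and *Mbd3* at 83.7 ± 1.68 overlapped. The other positions in the order were the same in all 3 lines. The order depends on the length used. Per kb of coding sequence *Gatad2a* (142 CPM per kb) stood above *Mta1* (89.1) in controls as well, and *Chd4* (120 in both mutant lines) stood below *Mbd3* (169 in Rbbp4Ins/Ins and 170.2 in Rbbp4Ins/Del) and *Gatad2a* (154 and 153) in the mutants.

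Shares within a family were taken in each library from the same levels. With 3 libraries against 3, the two-sided exact permutation test of a share cannot give a p below 0.1. *Mta1* made up 47.3%, 47.8%, and 47.5% of the summed *Mta1*, *Mta2*, and *Mta3* level in controls, 40.3%, 39.1%, and 39.0% in Rbbp4Ins/Ins, and 37.9%, 36.4%, and 36.7% in Rbbp4Ins/Del. The lines did not overlap, and the mean share of *Mta1* differed from controls by -8.06 points in Rbbp4Ins/Ins and by -10.5 points in Rbbp4Ins/Del, each at the smallest exact p of 0.1. *Mta2* rose in share from a mean of 32.8% to 36.7% and 39.5%, while its own count did not pass the test. Which MTA transcript led depends on the length used. Per kb of exon *Mta2* led in Rbbp4Ins/Del only, and per kb of coding sequence it led in both mutants, with 37.5% and 40.1%, and *Mta1* was last, with 28.5% and 26.5%. *Mta3* had 19.7% of the family level in controls, 23.8% in Rbbp4Ins/Ins, and 23.5% in Rbbp4Ins/Del. The summed MTA level differed from controls by -13.8% in Rbbp4Ins/Ins and -19.8% in Rbbp4Ins/Del. Per kb of coding sequence these differences were -10.1% and -15.8%.

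*Chd4* held 95.9% of the summed *Chd3*, *Chd4*, and *Chd5* level in controls, 94.5% in Rbbp4Ins/Ins, and 94.2% in Rbbp4Ins/Del, without overlap between controls and either mutant. *Chd3* had a share of 3.08%, 2.83%, and 2.46% in the same order, and its libraries overlapped between controls and Rbbp4Ins/Ins (exact permutation p = 0.2). The summed CHD level differed from controls by -22.8% and -23.0%. *Mbd2* made up 8.27% of the *Mbd2* and *Mbd3* level in controls, 10.1% in Rbbp4Ins/Ins, and 10.9% in Rbbp4Ins/Del, without overlap with controls, and the summed MBD level was 16.4% and 18.4% above controls. *Gatad2a* made up 79.6%, 81.6%, and 81.7% of the GATAD2 level, and its share in Rbbp4Ins/Del overlapped the controls (exact permutation p = 0.2). The summed GATAD2 level was 5.58% and 5.17% above controls. Per kb of coding sequence, the summed levels differed by -22.6% and -22.7% for CHD, 16.8% and 19.0% for MBD, and 3.58% and 3.06% for GATAD2. Counted in percentage points, the MTA family thus showed the widest shift between paralogs of these 4 families, and its shares are drawn by library. The ranking depends on this scale. Relative to their control shares, both *Chd5* and the member *Mbd2* moved more than *Mta1*. *Chd5* went from 1.06% in controls to 2.71% in Rbbp4Ins/Ins and 3.31% in Rbbp4Ins/Del, and *Mbd2* from 8.27% to 10.1% and 10.9%.

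**Figure D3:**
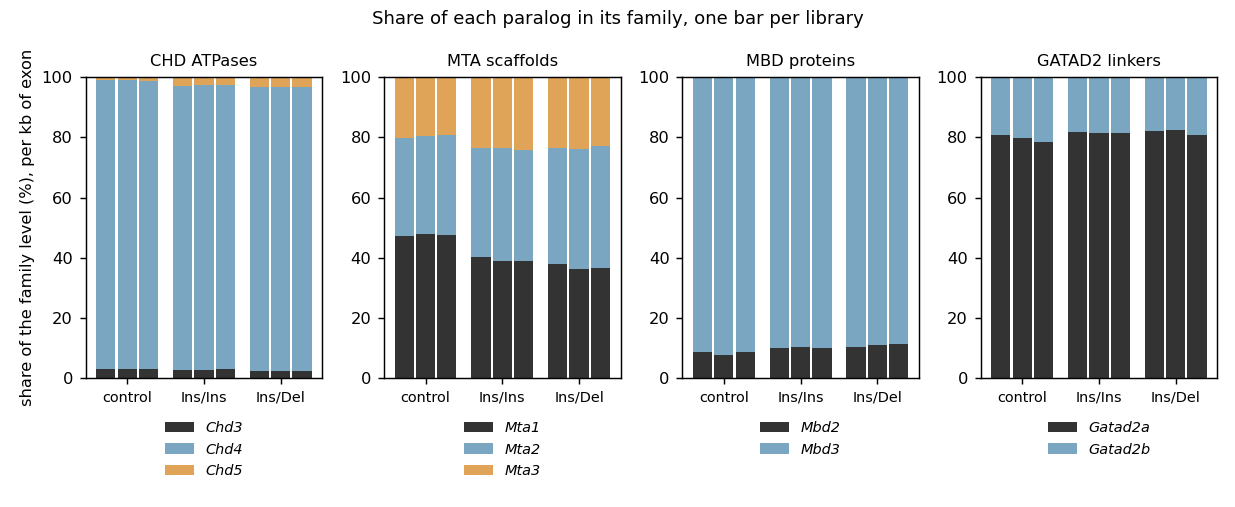
Share of each paralog in the summed level of its family, in percent, from CPM per kb of exon, with 1 bar for each of the 9 libraries in the order control, Rbbp4Ins/Ins, and Rbbp4Ins/Del. The *Mta1* part shrinks from 47.5% on average in controls to 39.5% and 37.0% in the mutants, while the CHD, MBD, and GATAD2 families keep *Chd4*, *Mbd3*, and *Gatad2a* as the main transcript in every library.

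The deacetylases and histone-binding proteins are shared by NuRD with other complexes. *Rbbp4*, the edited gene, had 9932, 9965, and 10117 normalized counts in controls, 5485, 5551, and 5776 in Rbbp4Ins/Ins, and 10129, 10344, and 10603 in Rbbp4Ins/Del. Only the Rbbp4Ins/Ins libraries were low. The log2 fold change was -0.84 (SE 0.029, adjusted p = 1.8e-25) in Rbbp4Ins/Ins and 0.05 (95% interval -0.01 to 0.11, adjusted p = 0.11) in Rbbp4Ins/Del, and the mutants differed by 0.89 (SE 0.029, adjusted p = 4.1e-24). The alleles are edits within the transcript, so the count of *Rbbp4* reads does not check the labels. Genes on the opposite strand, *Gm26722* and *Sync*, cover 9.10% and 8.94% of its exons. *Rbbp4* mRNA was lowered in 1 mutant line only, whereas *Chd3*, *Chd4*, and *Mta1* were called lower in both. By Western blot, the study found less RBBP4 protein in the mutants than in controls. The mRNA therefore does not stand for the amount of RBBP4, and its relation to the subunit genes was not tested.

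*Hdac2*, a deacetylase of the complex, rose from 3985, 3918, and 4175 normalized counts in controls to 5366, 5518, and 5871 in Rbbp4Ins/Ins and 6000, 6136, and 6262 in Rbbp4Ins/Del. The 3 lines did not overlap. The log2 fold changes were 0.47 (SE 0.033, adjusted p = 1.4e-15) and 0.61 (SE 0.033, adjusted p = 4.1e-19). Between the mutants *Hdac2* differed by 0.14 (adjusted p = 0.0024), a call lost in 4 of 15 alternatives. *Hdac1*, its paralog, was higher by 13.3% in Rbbp4Ins/Ins (log2 fold change 0.18, adjusted p = 3.4e-05) and 19.1% in Rbbp4Ins/Del (0.25, adjusted p = 7.7e-08). The summed HDAC1 and HDAC2 transcript level was 26.6% and 36.4% above controls per kb of exon, and 27.9% and 38.1% per kb of coding sequence. *Rbbp7*, the paralog of *Rbbp4*, held 7987, 7802, and 7828 normalized counts in controls, 7371, 7536, and 7470 in Rbbp4Ins/Ins, and 6703, 6630, and 6894 in Rbbp4Ins/Del. No lines overlapped, and *Rbbp7* was called lower in Rbbp4Ins/Del (log2 fold change -0.22, SE 0.028, adjusted p = 4.7e-09) but not in Rbbp4Ins/Ins (-0.08, adjusted p = 0.013). The difference between the mutants was -0.15 (SE 0.028, adjusted p = 1.9e-04).

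Of the small accessory subunits, *Cdk2ap2* had 206, 243, and 207 normalized counts in controls, 360, 350, and 367 in Rbbp4Ins/Ins, and 348, 343, and 341 in Rbbp4Ins/Del. It was higher in both mutants, with log2 fold changes of 0.72 (SE 0.081, adjusted p = 5.2e-10) and 0.66 (SE 0.082, adjusted p = 4.6e-09). *Cdk2ap1*, its paralog, had libraries that overlapped between all 3 lines and was not called in either mutant, at -0.29 (95% interval -0.48 to -0.09) and -0.19 (-0.39 to 0.01). In Rbbp4Ins/Ins it stood at the threshold, and 5 of 15 alternatives called it lower. *Chd5*, a CHD ATPase best known from neurons and testis, held 209, 196, and 266 normalized counts in controls, 457, 419, and 446 in Rbbp4Ins/Ins, and 545, 526, and 533 in Rbbp4Ins/Del. It was 1.97-fold higher in Rbbp4Ins/Ins (log2 fold change 0.99, SE 0.083, adjusted p = 2.6e-13) and 2.39-fold higher in Rbbp4Ins/Del (1.26, SE 0.081, adjusted p = 6.8e-17). The difference of 0.28 between the mutants (adjusted p = 0.0055) was lost in 6 of 15 alternatives. As a share of the CHD level, *Chd5* stood at 1.06% in controls, 2.71% in Rbbp4Ins/Ins, and 3.31% in Rbbp4Ins/Del. Its mean was above that of *Chd3* in Rbbp4Ins/Del per kb of exon, and in both mutants per kb of coding sequence (3.17% against 2.80% in Rbbp4Ins/Ins).

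Zinc finger and chromatin proteins that bring NuRD to chromatin or associate with it made up a list of 19 genes. In Rbbp4Ins/Ins 4 were higher and 10 lower, and in Rbbp4Ins/Del 3 were higher and 11 lower, beside 29.4% and 31.9% of all tested genes lower. Among those lower in both, *Zmym2*, named here for its position, starts within 5 Mb of *Chd8* on chromosome 14. In that region 87 and 84 of 105 tested genes other than *Chd8* were lower, and its part in the change of *Zmym2* was not tested. The 14 of 19 called in each line (73.7%) stand beside 58.4% and 62.5% of all genes. The median log2 fold changes were -0.31 and -0.33 in the list and 0.00 and -0.01 over all tested genes. *Bcl11a*, a zinc finger repressor known from the hemoglobin switch, fell from 247, 230, and 275 normalized counts in controls to 38.5, 55.3, and 62.4 in Rbbp4Ins/Ins and 63.4, 52.3, and 41.7 in Rbbp4Ins/Del. Its log2 fold changes were -2.29 (SE 0.14, adjusted p = 2.0e-17) and -2.24 (SE 0.14, adjusted p = 2.7e-17). *Zfpm2*, a GATA cofactor, had between 18 and 55 reads in controls, between 1 and 5 in Rbbp4Ins/Ins, and 1 or 2 in Rbbp4Ins/Del, and was called lower in both. *Zbtb7a* was the highest of the list, with log2 fold changes of 0.68 (SE 0.055, adjusted p = 6.9e-14) and 0.66 (SE 0.055, adjusted p = 1.6e-13). The other genes called higher in both mutants were *Sall1* and *Sall4*, zinc finger proteins of ESCs, which are named here after their values were seen. *Sall4* had log2 fold changes of 0.34 and 0.38 and *Sall1* of 0.31 and 0.22. *Sall3*, also on the list, went the other way and is likewise named after its values were seen. It was called lower in both mutants, at -1.05 (adjusted p = 5.1e-14) and -0.66 (adjusted p = 2.1e-09).

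Relatives of the subunits that are not part of NuRD give a comparison within the families. All 6 CHD genes outside NuRD were called in both mutants, 5 lower and 1 higher, beside 58.4% and 62.5% of all tested genes called and 29.4% and 31.9% called lower. *Chd7*, an ATPase of enhancers, fell from 5290, 5543, and 5517 normalized counts in controls to 2492, 2518, and 2432 in Rbbp4Ins/Ins and 2289, 2073, and 2077 in Rbbp4Ins/Del. Its log2 fold changes were -1.13 (SE 0.035, adjusted p = 4.2e-27) and -1.34 (SE 0.035, adjusted p = 2.1e-29). Within 5 Mb of *Chd7*, 18 of 32 other tested genes were lower in Rbbp4Ins/Ins, with a median of -0.26, and 20 were lower in Rbbp4Ins/Del, with a median of -0.28. *Chd8* had log2 fold changes of -1.09 (SE 0.032, adjusted p = 7.3e-28) and -1.10 (SE 0.032, adjusted p = 5.2e-28). Within 5 Mb of *Chd8* on chromosome 14, 87 of 105 other tested genes were lower in Rbbp4Ins/Ins and 84 were lower in Rbbp4Ins/Del, with medians of -0.83 and -0.84, and the part of these regions in the changes of *Chd7* and *Chd8* was not tested. *Chd2* was higher, at 0.31 in both mutants (SE 0.039, adjusted p = 4.5e-09 and 6.8e-09), and shares 18.4% of its exon length with *1810026B05Rik* on the same strand. Of 5 MBD genes outside NuRD, 1 was higher and 1 lower in both mutants. *Mbd6* was highest, at 0.34 and 0.40 (adjusted p = 1.8e-06 and 6.5e-08), and *Mbd1* lowest, at -0.72 and -0.65 (adjusted p = 4.7e-12 and 4.0e-11).

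*Klf4*, *Klf5*, *Tbx3*, and *Zfp42* are pluripotency genes known to be restrained by NuRD in ESCs, and all 4 were called higher in both mutants, beside 29.0% and 30.6% of all tested genes. This list was chosen with earlier results known, so its count is no independent evidence of a direction. Of the 8 ESC markers, which include *Zfp42*, 5 were higher and 2 lower in Rbbp4Ins/Ins, and 4 were higher and 1 lower in Rbbp4Ins/Del. *Tbx3*, a T-box factor, rose from 740, 759, and 720 normalized counts in controls to 2898, 2771, and 2690 in Rbbp4Ins/Ins and 3252, 3290, and 3074 in Rbbp4Ins/Del. No lines overlapped, and the log2 fold changes were 1.91 (SE 0.042, adjusted p = 1.4e-31) and 2.12 (SE 0.042, adjusted p = 2.6e-33). *Zfp42*, which encodes the ESC marker REX1, had 7764, 7765, and 7275 normalized counts in controls, 13941, 14425, and 14321 in Rbbp4Ins/Ins, and 15924, 16052, and 15462 in Rbbp4Ins/Del. Its log2 fold changes were 0.90 (SE 0.029, adjusted p = 1.4e-26) and 1.06 (SE 0.029, adjusted p = 6.3e-29). *Klf4* was 1.65-fold and 1.71-fold higher (log2 fold changes 0.73 and 0.77, adjusted p = 5.2e-20 and 5.7e-21), and *Klf5* was 1.71-fold and 1.81-fold higher (0.77 and 0.85, adjusted p = 1.2e-18 and 3.0e-20). *Tbx3* and *Zfp42* were also higher in Rbbp4Ins/Del than in Rbbp4Ins/Ins, by 0.20 (SE 0.036, adjusted p = 5.6e-05) and 0.15 (SE 0.028, adjusted p = 9.9e-05), while *Klf4* and *Klf5* were not called there. The plot of partners and relatives shows every listed gene.

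**Figure D4:**
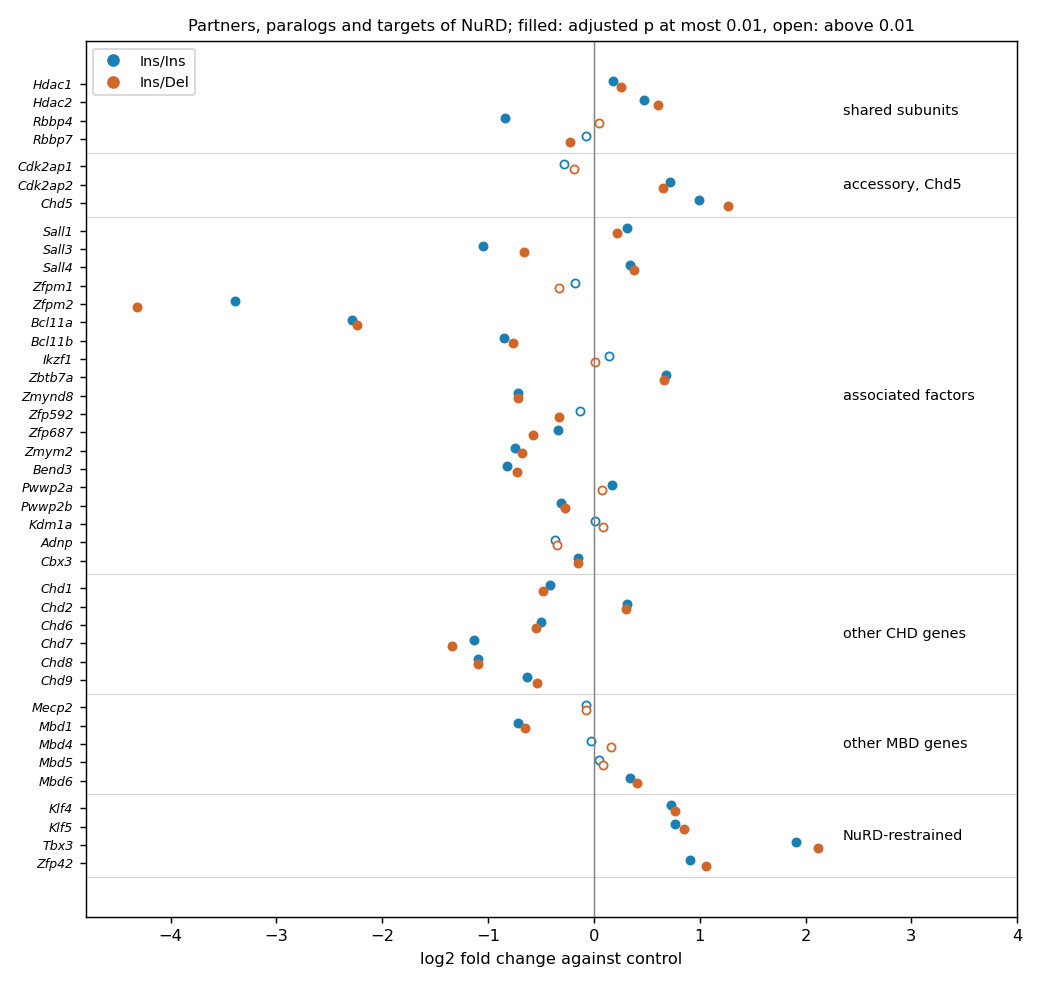
Log2 fold change against controls of NuRD partners, paralogs outside the complex, and pluripotency genes known to be restrained by NuRD, with Rbbp4Ins/Ins and Rbbp4Ins/Del as separate points that are filled at an adjusted p of at most 0.01. The 4 restrained genes lie right of 0, 5 of 6 other CHD genes lie left of 0, and *Zfpm2*, at the far left, rests on 1 to 5 reads in the mutant libraries.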

How the data were processed

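Total RNA from E14 ESCs and the *Rbbp4* mutant lines was made into libraries with the Kapa mRNA HyperPrep kit and sequenced in paired reads of 50 bp. The authors aligned the reads to mm10 with STAR 2.7.3 and counted them per gene with HTSeq, and the deposited values are whole-number counts per gene symbol. The HTSeq version, annotation, and strand setting are not given in the sources used here. The submitters' own test was DESeq2 1.22.2. Here, groups were taken from the genotype labels, and the counts were scaled with TMM factors, filtered with filterByExpr, and fitted with edgeR 4.0.16 (glmQLFit and glmQLFTest, R 4.3.3) over all 9 libraries and 3 groups without covariates. The SE of a log2 fold change was taken as its size over the square root of F. Shares and their tests were computed with scipy 1.17.1 and pandas 2.3.3 in Python 3.11.15. Gene positions, exon lengths, and exon overlaps came from GENCODE M21 on GRCm38.

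The NuRD members and gene lists were chosen with earlier results of these data known. Named genes are all members, shared, accessory, and restrained genes, and of the other lists those called and over 2-fold in both mutants and the highest and lowest mean change. On simulated counts for 13906 genes, edgeR recovered 27 of 50 genes changed 1.25-fold, 39 of 50 changed 1.5-fold, and 43 of 49 changed 2-fold in the Rbbp4Ins/Ins comparison. There were 2 false calls. Changes as small as that of *Gatad2a* can be missed. Far fewer genes were changed in the simulation than were called in the data, which makes the adjusted p stricter there. The recovery rates therefore do not give the sensitivity in these data. Alternatives were DESeq2 1.42.0, its size factors in edgeR, total counts, no expression filter, only the groups compared, a replicate block, each library left out, an adjusted p limit of 0.05, and coding length. Other assays of the study were not analysed here.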

Additional observations from a re-analysis of the deposited data

Results flagged for a closer look

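Of the 9 subunit genes, 2 were called different between the mutant lines by a direct test in the edgeR fit, beside 10.8% of all tested genes. The effect on *Mta1* in Rbbp4Ins/Del minus that in Rbbp4Ins/Ins was -0.20 on the log2 scale (adjusted p = 6.6e-05), and it stayed past the threshold in 15 of 15 alternatives. The effect on *Mta3* differed by -0.12 (adjusted p = 0.0096), with means of 2586 normalized counts in Rbbp4Ins/Ins and 2374 in Rbbp4Ins/Del, and it stayed past the threshold in 5 of 15 alternatives.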

How the results depend on the processing

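No called value changed direction under the alternatives run. Of the members' log2 fold changes under alternatives, 389 stayed on their side of the threshold and 16 fell short of it, 10 for *Mta3* between the mutants and 6 for *Gatad2a* against controls. *Mta3* was at -0.11 with DESeq2, -0.11 with DESeq2's size factors in edgeR, -0.13 with all genes with at least 1 read, and between -0.13 and -0.11 with single libraries left out. *Gatad2a* in Rbbp4Ins/Del was at 0.0936 with total counts and between 0.0780 and 0.146 with single libraries left out, and in Rbbp4Ins/Ins between 0.10 and 0.13. The number of members lower in Rbbp4Ins/Del than in Rbbp4Ins/Ins was 1 with DESeq2, its size factors, or all genes with at least 1 read, and 1 to 2 with single libraries left out. It was 3 at an adjusted p of at most 0.05, a limit that *Chd3* passed as well (adjusted p = 0.041). Over all genes in that comparison, 423 were lower with DESeq2, 406 to 703 were lower and 576 to 943 higher with single libraries left out (lowest for lower calls without Rbbp4Ins/Ins library 1 and for higher calls without Rbbp4Ins/Del library 2), and 1426 were higher and 1256 lower at an adjusted p of at most 0.05. With the replicate number as a block, *Mta3* was at -0.12 (adjusted p = 0.0129) and the number of lower members at 1, and the block changed no other call of a member. Same-numbered libraries did not deviate together, with correlations between -0.028 and 0.056 over 9 pairs, so no pairing by number was seen. The labels do not say whether same-numbered libraries were handled together, and the correlations cannot settle it. Per kb of coding sequence, the share of *Mta1* differed from controls by -7.28 and -9.24 points in Rbbp4Ins/Ins and Rbbp4Ins/Del, that of *Mta2* higher by 2.54 and 5.17 points, that of *Mta3* in Rbbp4Ins/Ins higher by 4.75 points, and that of *Gatad2a* in Rbbp4Ins/Ins higher by 2.84 points. The cause of these differences was not tested, apart from the lengths used. Depth limits *Zfpm2*, which had at most 5 reads in any mutant library.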
